A study of Mus musculus with 536 samples.

Results

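Socs1, Socs2, Socs3, Cish, Pim1, Cebpd and Bcl3 are feedback and target genes of cytokine signalling through the JAK kinases and STAT transcription factors. They were taken by name, 7 of the 12393 genes with a single symbol on the array, and where several probe sets stood for a gene, the one brightest on average over the series was read. RNA had been measured in whole blood of C57BL/6 mice, 10 to 12 weeks old, after total body irradiation from a caesium-137 source or at 0 cGy. All blood came from a terminal cardiac puncture, so each mouse gave 1 time, and all RNA was depleted of beta-globin transcripts before amplification.

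The arrays form 4 sets. In the dose-time set 240 mice, 5 in each of 48 groups, were given 0, 100, 200 or 300 cGy, or one of the higher doses of 450, 600, 800 and 1050 cGy, and bled at 6, 24, 48, 72, 120 or 168 hr, with 1 mouse of each group in each of 5 array runs. The sex and treatment set, with 111 female and 115 male mice in 48 groups of 3 to 5, received lipopolysaccharide (LPS, a bacterial cell wall component), granulocyte colony-stimulating factor (GCSF) or no agent, with 0, 200, 300 or 600 cGy, and bled at 6 or 24 hr. The small treatment set had 9 groups of 5 or 6, with 50 mice of unstated sex in all, given LPS, GCSF or no agent with 0, 150 or 600 cGy and bled at 6 hr. A small 7 day set held 10 mice given 150 cGy and bled at 168 hr, against 3 mice at 0 cGy bled at the same time. The labels do not say when an agent was given relative to irradiation, and give the replicates as separate mice.

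Cytokines such as interleukin 6, GCSF and interferon gamma bind receptors that carry JAK kinases, and these phosphorylate STAT proteins, which enter the nucleus and switch on target genes. Some of the targets are brakes: SOCS proteins and Cish bind activated receptors or JAKs and stop the signal, Socs3 mainly at receptors for interleukin 6 and GCSF, Socs1 at interferon receptors, Cish and Socs2 at receptors that use STAT5, such as those for growth hormone and erythropoietin. The others pass the signal on: Pim1 is a serine/threonine kinase that favours survival of blood cells, Cebpd a transcription factor of acute inflammation and myeloid cells, and Bcl3 a nuclear IkB protein that works with NF-kB p50 and p52.

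Promoter sequences were looked up because these genes moved together in part of the series. RefSeq (GRCm38.p6) gave the 250 bases before and 50 bases after the start for 5 of the 7 genes (6 promoters). Each was searched on both strands for the letters TTCNNNGAA, the core of a STAT site, and for the NF-kB consensus. The 3 promoters with a match are shown with the matching letters in capitals. Socs3 is at chr11:117966079-117970336, and its promoter is chr11:117969317-117969616 on the minus strand, with TTCTTAGAA 154 bases before the start:
Socs3: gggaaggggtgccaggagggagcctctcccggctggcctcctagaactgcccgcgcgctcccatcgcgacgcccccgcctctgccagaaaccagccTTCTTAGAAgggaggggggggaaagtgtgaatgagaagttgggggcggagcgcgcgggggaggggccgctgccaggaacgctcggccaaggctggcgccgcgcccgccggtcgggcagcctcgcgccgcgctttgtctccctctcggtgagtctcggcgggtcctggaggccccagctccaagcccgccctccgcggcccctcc
Cish is at chr9:107296659-107302784, and its promoter is chr9:107296409-107296708 on the plus strand, with one match at the start and another 11 bases after it:
Cish: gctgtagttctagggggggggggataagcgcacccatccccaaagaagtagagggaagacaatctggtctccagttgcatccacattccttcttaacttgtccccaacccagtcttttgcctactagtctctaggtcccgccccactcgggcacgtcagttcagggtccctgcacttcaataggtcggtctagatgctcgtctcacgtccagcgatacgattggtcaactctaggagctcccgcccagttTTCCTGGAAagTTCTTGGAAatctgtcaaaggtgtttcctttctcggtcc
Bcl3 is at chr7:19808462-19822824, and its promoter is chr7:19822706-19823005 on the minus strand, with the NF-kB consensus 2 bases after the start and no STAT match:
Bcl3: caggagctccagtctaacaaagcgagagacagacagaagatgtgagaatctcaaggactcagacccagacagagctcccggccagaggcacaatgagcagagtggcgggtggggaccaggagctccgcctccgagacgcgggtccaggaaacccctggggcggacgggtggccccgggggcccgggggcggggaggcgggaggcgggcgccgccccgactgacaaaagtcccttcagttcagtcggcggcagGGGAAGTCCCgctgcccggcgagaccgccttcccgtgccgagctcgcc
Of all 32851 promoters of this length, 8.30% held TTCNNNGAA, 0.457% held it at least 2 times, as Cish did, and 8.46% held the NF-kB consensus. The promoters of Socs1 (chr16:10783808-10785536) and Pim1 (chr17:29490785-29496111) held neither in this window. Socs2 is at chr10:95383903-95417321 and Cebpd at chr16:15887286-15889545. A match is a run of letters, not a measured binding site.

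Values are log2 intensities as deposited, and differences and slopes are on the log2 scale. No detection call comes with these values, so a low level cannot be told from background. A gene is called higher or lower where limma's moderated test gave a Benjamini-Hochberg adjusted p under 0.05 over all 12393 genes. Defining blood markers were well represented, with the neutrophil gene S100a8 at a mean of 12.8 and the erythroid gene Alas2 at 13.6 over all mice. The liver gene Alb was at 10 or more in 203 of 534 mice: 116 of the 240 dose-time mice, 61 mice of the sex and treatment set, 23 of 50 in the small treatment set and 3 of 18 in the small 7 day set. In the small treatment set, mouse 10 of the 0 cGy group with no agent stood apart, with Bcl3 at 8.17 against 7.07 to 7.33 in the other mice of its group. Its Socs3 was the highest too, at 10.11 against 6.53 to 7.95, but was not flagged by the screen for single mice given at the end. In the small 7 day set, mouse 2 of the 150 cGy group stood apart with Socs3 at 9.72, against 6.57 to 7.82 in the others. In blood, fewer cells of a type and less RNA per cell cannot be told apart.

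At 6 hr, 6 of the 7 members were higher at 600 cGy than at 0 cGy, where 49.0% of all genes differed in either direction, in falling order of size Socs3, Cebpd, Bcl3, Pim1, Cish and Socs1. In the 600 cGy mice Socs3 was at 10.36, 10.36, 10.36, 10.62 and 10.67, against 6.43, 6.64, 6.65, 6.73 and 7.07 in the 0 cGy mice. At 100 cGy the 5 mice held 6.83 to 7.33 and overlapped the controls, at 200 cGy 7.24 to 8.26, and at 300 cGy 8.71 to 10.20. At 450, 800 and 1050 cGy the ranges were 10.28 to 10.66, 10.41 to 10.82 and 10.06 to 10.78. From 200 cGy on every irradiated mouse was above every control, and from 450 cGy on the dose groups overlapped one another. Socs3 averaged 10.47 ± 0.16 at 600 cGy and 6.71 ± 0.23 at 0 cGy (SD, n = 5 each), a difference of 3.77 (SE 0.24, limma adjusted p = 1.16e-31) that lay between 3.60 and 3.98 within each of the 5 array runs. The steps above 0 cGy were 0.33 at 100 cGy (not past the test), 1.19 at 200, 2.58 at 300, 3.75 at 450, 3.77 at 600, 3.85 at 800 and 3.75 at 1050 cGy.

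Cebpd at 6 hr was at 8.99, 9.29, 9.35, 9.41 and 9.57 in the 600 cGy mice, against 5.98, 6.52, 6.93, 7.09 and 7.20 in the 0 cGy mice. The 2 groups lay apart by more than the spread within either. It averaged 9.32 ± 0.21 at 600 cGy and 6.74 ± 0.50 at 0 cGy, a difference of 2.58 (SE 0.32, limma adjusted p = 4.18e-12), above 0 in 5 of 5 runs (2.06 to 3.37). Bcl3 was at 7.55, 7.70, 7.78, 7.83 and 8.06 at 600 cGy, against 6.79, 6.80, 6.81, 6.94 and 7.13 at 0 cGy, again without overlap. Its difference was 0.89 (SE 0.19, limma adjusted p = 4.06e-05), and it was called from 450 cGy on, as Cebpd was from 300 cGy on. Pim1 was at 9.29 to 9.56 in the 600 cGy mice, against 8.35 to 9.15 in the 0 cGy mice, a difference of 0.62 (SE 0.20, limma adjusted p = 0.00659).

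The remaining SOCS family members moved less at 6 hr. Cish was called at all 7 doses, by 0.35 to 0.57, with 7.12, 7.18, 7.27, 7.45 and 7.46 in the 100 cGy mice and 7.09 to 7.63 in the 600 cGy mice, against 6.71 to 6.96 in the 0 cGy mice. At 5 of 7 doses, 100 cGy among them, no mouse overlapped the controls, and at 450 and 800 cGy 1 mouse each did. Its slope of 0.02 per 100 cGy did not pass the test (limma adjusted p = 0.263). Socs1 was called at 4 of 7 doses, with 0.37 at 600 cGy (SE 0.16, limma adjusted p = 0.0405) and 6.41 to 6.79 in the 600 cGy mice, against 5.92 to 6.51 in the 0 cGy mice, which overlap. Its difference was above 0 in 4 of 5 runs (-0.03 to 0.81). Socs2 was at 5.58 to 6.14 at 600 cGy, against 5.05 to 5.39 at 0 cGy. It was called at 1050 cGy only of the single doses, and its slope of 0.06 (limma adjusted p = 0.0198) lost its call without the mice in place 4 (adjusted p = 0.0664) or 5 (adjusted p = 0.0851). A place, from 1 to 5, is a mouse's rank in its group in the order of deposit, and the mice of one place in all groups of a set were left out together.

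As dose trends (slopes of group mean on dose, in log2 units per 100 cGy), 5 of the 7 members rose at 6 hr and none fell, where 16.2% of all genes rose and 18.5% fell. The slopes of Socs3 (0.39, SE 0.02) and Cebpd (0.26, SE 0.02) led, ahead of Bcl3 (0.12), Pim1 (0.08) and Socs2 (0.06), and the members' median was 0.08 against 0.00 over all genes. By single doses, 30 of the 49 member calls at 6 hr passed, where 42.2% of all gene and dose pairs did. The median gene lay 0.11 to 0.15 above the 0 cGy level at 6 hr at every dose, so differences of that size are within the shift of the whole array. In the same mice 13 of 15 neutrophil markers rose and none fell, 10 of 11 B cell and 9 of 10 T cell markers fell, and none of 16 hepatocyte genes changed. The neutrophil list was at 9.34 to 9.77 in the 600 cGy mice, against 7.02 to 7.77 in the 0 cGy mice, and the B cell list at 5.96 to 6.40, against 8.93 to 9.39. Their part in the members' changes was not tested.

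**Figure D1:**
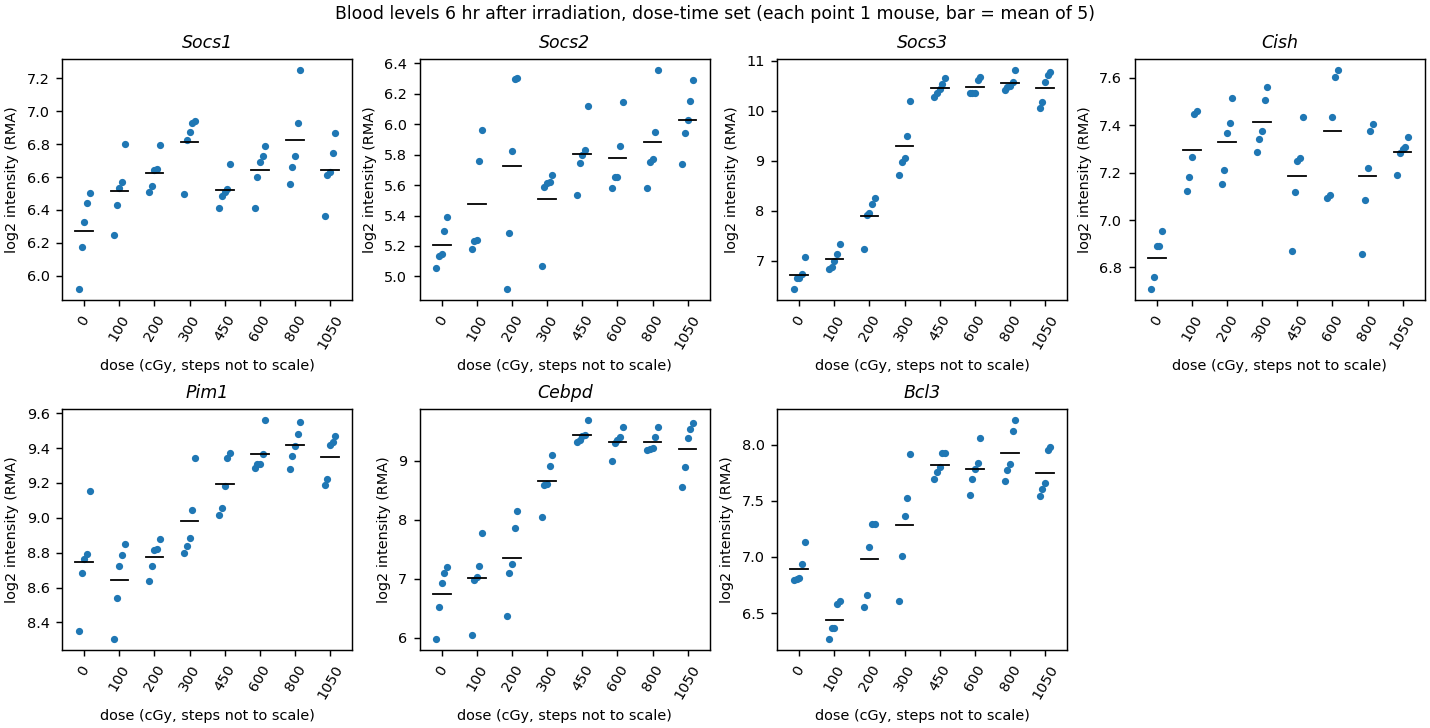
Log2 intensity of the 7 genes (vertical axes) by dose in cGy at 6 hr in the dose-time set, each point 1 mouse and each bar the mean of 5. Socs3 climbs between 100 and 450 cGy and stays near 10.5 above that, Cebpd follows with smaller steps, and Cish is already higher at 100 cGy.

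At 24 hr the dose trends of Socs3, Cebpd and Bcl3 did not pass the test. Cish alone rose with dose (0.03 per 100 cGy, limma adjusted p = 0.0193), 1 of 7 members, where 18.9% of all genes rose and 19.8% fell. That call was lost without the mice in place 1, 4 or 5 (adjusted p = 0.0649 to 0.153). With each array centred on its median, 3141 genes rose and 2176 fell at 24 hr, against 2342 and 2456 as deposited. The slope at 24 hr minus that at 6 hr was -0.37 for Socs3 (SE 0.03, limma adjusted p = 2.77e-29), -0.29 for Cebpd (adjusted p = 4.36e-13) and -0.14 for Bcl3 (adjusted p = 1.55e-09). Single doses still differed from 0 cGy: Socs3 was called at 5 of 7 doses, Socs2 and Cebpd at 4 each, Socs1 at 3, Cish at 2 and Bcl3 at none. The lowest dose called was 100 cGy for Socs3, Cebpd and Socs1, against 200, 300 and 300 cGy at 6 hr. Pim1 was lower at 300 cGy only, with 7.33, 7.48, 7.85, 8.09 and 8.36 in those mice, against 8.39 to 8.73 in the 0 cGy mice. The same 300 cGy mice all had high levels of the liver gene Alb, at 14.04 to 14.50, against 5.49 to 13.70 at 0 cGy. The part of liver RNA in the lower Pim1 was not tested. In all, 19 of 49 member calls passed, where 22.9% of all gene and dose pairs did. Mice given 800 cGy were uneven at 24 hr, with the B cell list at 5.97 to 8.49, and without them Socs2 also rose (0.07, adjusted p = 0.0277).

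At 48 hr Cebpd, Socs3 and Bcl3 were called at every dose, 100 cGy included. Cebpd was at 9.06, 9.73, 10.01, 10.77 and 10.92 in the 800 cGy mice and at 7.94 to 9.32 in the 100 cGy mice, against 6.18, 6.61, 7.02, 7.10 and 7.55 in the 0 cGy mice. No irradiated mouse of those 2 groups overlapped the controls. Over the 7 doses the differences from 0 cGy were 1.64 to 3.20 for Cebpd, 1.37 to 2.63 for Socs3 and 0.54 to 1.56 for Bcl3. Socs3 was at 8.62 to 9.61 in the 1050 cGy mice, against 6.20 to 6.94 at 0 cGy, and Bcl3 at 7.29 to 8.11, against 5.76 to 6.63. Socs2 was the most variable, at 6.52 to 8.78 in the 600 cGy mice, against 4.67 to 6.66 in the 0 cGy mice, with a slope of 0.12 (limma adjusted p = 3.55e-06). All members but Socs1 rose with dose, 6 of 7, where 24.0% of all genes rose and 23.3% fell. After centring, 3499 genes rose and 2220 fell, against 2977 and 2888. Of the single doses 37 of 49 member calls passed, where 43.8% of all pairs did. With the members, 11 of 15 neutrophil, 10 of 12 platelet and 9 of 9 tissue macrophage markers rose, and the neutrophil list was at 9.0 to 10.31 at 800 cGy, against 7.07 to 7.87 at 0 cGy. The part of these cells was not tested.

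At 72 hr Pim1 and Cish reached their highest levels of the dose-time set. Pim1 was at 10.08, 10.10, 10.17, 10.34 and 10.42 in the 1050 cGy mice, against 8.29, 8.33, 8.37, 8.74 and 8.95 in the 0 cGy mice, more than a log2 unit apart. Its difference was 1.69, and at 600 cGy it was 1.26, above 0 in 5 of 5 runs (0.70 to 1.82). Cish was at 7.78, 7.80, 7.82, 7.83 and 8.17 at 1050 cGy, against 6.78 to 7.32 at 0 cGy, without overlap. The trends of Socs2 (0.19), Socs3 (0.15), Cish (0.08), Pim1 (0.17) and Cebpd (0.06) rose, 5 of 7, where 26.3% of all genes rose and 27.1% fell. That of Cebpd lost its call without the mice in place 1, 3, 4 or 5 (adjusted p up to 0.0900), and that of Bcl3 (0.03, adjusted p = 0.0803) gained it without those in place 3 (adjusted p = 0.0215). By single doses 30 of 49 member calls passed, where 43.7% of all pairs did. Platelet markers rose at this time too, 11 of 12 with dose, and that list was at 12.55 to 12.64 in the 1050 cGy mice, against 9.79 to 10.20 in the 0 cGy mice. Across the means of all 48 groups its correlation (r) was 0.42 with Pim1 and 0.38 with Cish. For the B cell list these were -0.47 and -0.67. The part of these cells was not tested.

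**Figure D2:**
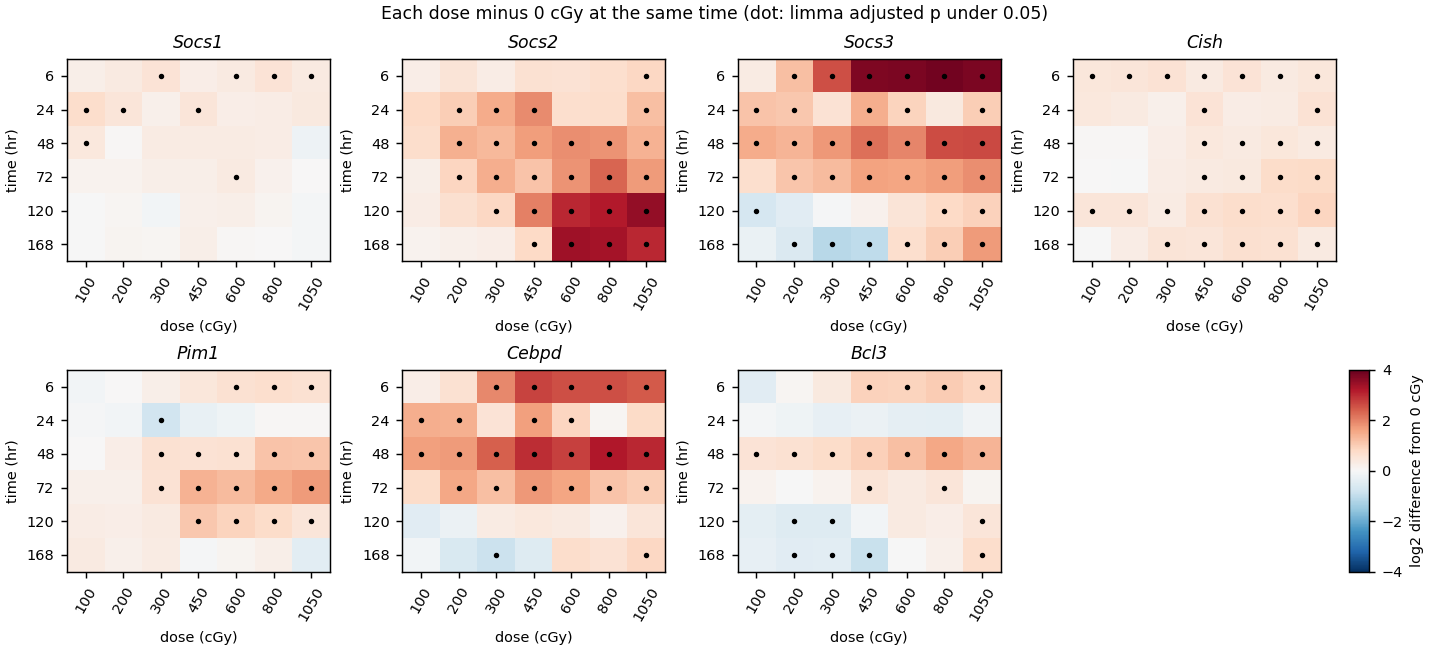
Log2 difference from 0 cGy at the same time (colour) for each dose (horizontal axes, cGy) and time (vertical axes, hr) in the dose-time set, 5 mice per group, with a dot where the limma adjusted p was under 0.05. At 600 cGy, Socs3, Cebpd and Bcl3 lie further above 0 cGy at 6 and 48 hr than at 24 hr, where Bcl3 has no dot. At 100 cGy Socs3 and Cebpd have a dot at 24 hr but not at 6 hr. Pim1 peaks at 72 hr, and Socs2 is highest at 120 and 168 hr at 600 cGy and above.

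At 120 and 168 hr Socs2, a SOCS protein best known as the brake on growth hormone signalling, became the member that changed most. At 168 hr it was at 8.10, 8.29, 8.56, 9.27 and 9.72 in the 600 cGy mice, against 5.30, 5.30, 5.40, 5.45 and 5.49 in the 0 cGy mice, a difference of 3.40 (SE 0.31, limma adjusted p = 3.25e-19) that was 2.80 to 4.42 within runs. It was a step rather than a ramp: the 450 cGy mice held 5.98 to 6.35, the 800 cGy mice 8.45 to 8.86 and the 1050 cGy mice 7.77 to 9.03. At 120 hr the rise began lower, and Socs2 was called at the 5 doses from 300 cGy on. It was at 7.05 to 7.80 at 450 cGy, 7.89 to 8.63 at 600 cGy and 8.23 to 9.49 at 1050 cGy. The 0 cGy mice held 5.00 to 5.41. At all 5 of these doses at 120 hr, and from 450 cGy on at 168 hr, no mouse overlapped the controls.

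Socs3 and Bcl3 ran in opposite directions at low and high dose at 168 hr. Socs3 was at 5.66, 5.82, 6.41, 6.58 and 6.67 in the 300 cGy mice and at 8.19, 8.44, 9.13, 9.18 and 10.22 in the 1050 cGy mice, against 6.90, 7.10, 7.44, 7.56 and 7.67 in the 0 cGy mice. The controls lay between the 2 irradiated groups and overlapped neither. Socs3 differed from 0 cGy by -0.59, -1.11 and -1.01 at 200, 300 and 450 cGy and by 0.68, 0.98 and 1.70 at 600, 800 and 1050 cGy, all past the test (limma adjusted p up to 0.0297). Bcl3 differed by -0.45, -0.44 and -0.89 at 200, 300 and 450 cGy and by 0.71 at 1050 cGy, with 5.58 to 6.22 in the 450 cGy mice, against 6.79 to 6.99 in the 0 cGy mice. Cebpd was lower at 300 cGy (-0.85) and higher at 1050 cGy (0.82), and Cish was higher at the 5 doses from 300 cGy on (0.37 to 0.65). Pim1 fell slightly with dose (slope -0.04, limma adjusted p = 0.0067), a call lost without the mice in place 4 (adjusted p = 0.138).

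As trends, 6 of 7 members rose at 120 hr, where 35.4% of all genes rose and 47.0% fell, and at 168 hr 5 rose and Pim1 fell, where 35.5% rose and 46.6% fell. By single doses 22 of 49 member calls passed at 120 hr, where 53.4% of all pairs did, and 21 of 49 at 168 hr, where 52.9% did. These shares are below those of all genes, a difference that was not tested.

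These late groups also carried liver RNA. Alb, the main liver plasma protein, was at 13.5 to 14.8 in 30 of 30 mice at 600 cGy or more at 120 or 168 hr. At 450 cGy it was at 10.1 to 14.3 in 5 of 5 mice at 120 hr and at 12.3 to 13.9 in 5 of 5 at 168 hr, but reached 10 in only 8 of 30 mice at 0 cGy over all times. All 16 hepatocyte genes and all 9 tissue macrophage markers rose with dose at both times, and at 168 hr the hepatocyte list was at 11.66 to 13.16 in the 600 cGy mice, against 4.62 to 5.39 in the 0 cGy mice. At 6 hr, in contrast, 1 of 35 irradiated mice had Alb at 10 or more. The times between were not free of it. At 24, 48 and 72 hr Alb reached 10 in 3, 3 and 2 of 5 mice at 0 cGy. At 600 cGy it did so in 4, 3 and 4 of 5 mice at these times. Without all mice at 10 or more, no mouse of 450 cGy or more is left at 120 or 168 hr, so the trends then rest on 0 to 300 cGy. That of Socs2 was 0.26 at 120 hr (adjusted p = 0.00069) and 0.06 at 168 hr (adjusted p = 0.407), against 0.38 at both times with all mice. At 168 hr the trends of Socs3 and Cebpd then were -0.38 (adjusted p = 4.27e-06) and -0.33 (adjusted p = 0.00204), against 0.21 and 0.12 with all mice. Bcl3 then had -0.17 at 120 hr (adjusted p = 0.00581), against 0.09 with all mice, and the rising trends of Socs3 and Cebpd at 120 hr were not called (0.01 and 0.12). Under quantile normalisation the trends of Pim1 (-0.01) and Cish (0.01) at 120 hr and of Cish at 168 hr (0.00) were not called.

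**Figure D3:**
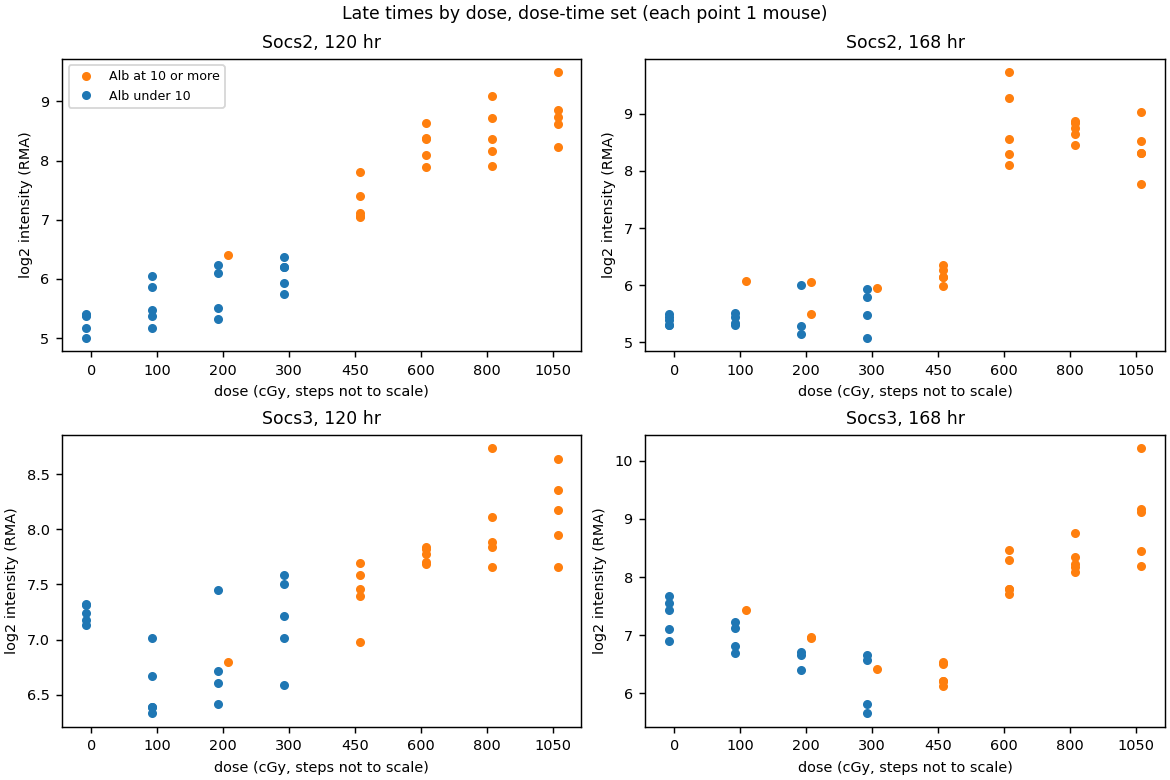
Log2 intensity of Socs2 (top) and Socs3 (bottom) by dose in cGy at 120 hr (left) and 168 hr (right) in the dose-time set, each point 1 mouse, coloured by whether its Alb was at 10 or more. The high Socs2 values, at 7.05 and above, all belong to mice with Alb at 10 or more, and Socs3 dips at 300 and 450 cGy at 168 hr before rising at 600 cGy and above. At 120 hr every 300 cGy mouse, with Alb at 5.98 to 7.83, also lies above every 0 cGy mouse in Socs2.

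Across the 48 groups of the dose-time set, Socs3 had the widest range of group means, 4.33, with its highest at 800 cGy and 6 hr (10.56 ± 0.16) and its lowest at 300 cGy and 168 hr (6.23 ± 0.46). In that order 46 of 47 neighbours lay closer than the pooled SD of 0.39, so single steps in it are not resolved. Socs2 was highest at 600 cGy and 168 hr (8.79) and lowest at 0 cGy and 6 hr (5.20), Cebpd highest at 800 cGy and 48 hr (10.10) and lowest at 0 cGy and 72 hr (6.51). Bcl3 was highest at 800 cGy and 6 hr (7.92) and lowest at 450 cGy and 168 hr (5.98), and Socs1 ranged least, with 6.82 at 800 cGy and 6 hr and 6.05 at 0 cGy and 24 hr. The dose trends differed between times for all members but Socs1 (limma F test, adjusted p = 0.179), as they did for 92.3% of all genes. Over the same 48 means, which share controls, runs and blood composition, Socs3 followed Bcl3 (r = 0.87) and Cebpd (r = 0.83), while Cish followed Pim1 (r = 0.71) and Socs2 (r = 0.66). The neutrophil list ran with Cebpd (r = 0.86) and Socs3 (r = 0.72), and the tissue macrophage and hepatocyte lists with Socs2 (r = 0.87 and 0.85). The genes most alike by r were Fas (0.92), Ccr1 (0.91) and Hcar2 (0.90) for Socs3, Fpr2 (0.96), Rnf149 (0.95) and Slc15a3 (0.95) for Cebpd, and Tmem268 (0.91), Socs3 (0.87) and Dgat1 (0.83) for Bcl3. For Socs2 they were Rps4l, Nfic and Plin2 (0.94 each), for Pim1 Ak1, Map4k4 (0.81 each) and Paf1 (0.80), for Cish Zfp385a (0.87), Fbln1 (0.86) and Ak1 (0.85), and for Socs1 Serpinb9b (0.72), Tnfsf4 and Il12rb1 (0.70 each).

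LPS without irradiation gave another pattern, led at 6 hr by Socs1. At 6 hr in the sex and treatment set, Socs1 was at 8.34, 8.48 and 8.72 in LPS females and at 6.50, 6.71, 7.02, 7.60 and 7.83 in LPS males, at 6.04 to 6.59 and 5.87 to 6.32 in GCSF females and males, and at 5.85 to 6.40 and 5.78 to 6.51 in females and males with no agent. The LPS females stood above every other mouse, and 1 LPS male (6.50) lay within the range of males with no agent. LPS minus no agent was 1.64 (SE 0.15, limma adjusted p = 2.11e-18). At 24 hr Socs1 did not lead: with both sexes together it averaged 7.01 with LPS and 6.33 with no agent. In the small treatment set Socs1 was at 8.14 to 9.47 with LPS (median 9.24), against 6.15 to 6.61 with no agent (median 6.40), a difference of 2.63 (SE 0.21, limma adjusted p = 4.84e-14).

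Cish and Socs3 rose with LPS as well. Cish at 6 hr was at 8.24, 8.28 and 8.29 in LPS females and at 7.31, 7.32, 7.75, 7.99 and 8.31 in LPS males, against 6.80 to 6.93 and 6.93 to 7.22 in females and males with no agent. Neither sex overlapped its controls, and the difference was 0.99 (SE 0.13, limma adjusted p = 2.17e-10). Socs3 at 6 hr was at 10.37, 10.71 and 10.86 in LPS females and at 9.55 to 10.46 in LPS males, against 7.36, 9.26, 9.46, 9.83 and 9.94 in females and 7.79 to 9.23 in males with no agent. Within each sex the groups did not overlap, although 4 of the 5 female controls were already above 9, and the difference was 1.5 (SE 0.30, limma adjusted p = 2.57e-05). At 24 hr, with the female controls at 7.12 to 7.90, it was 2.42 (SE 0.29, limma adjusted p = 7.47e-13).

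Pim1 rose by 0.81, 0.84 and 0.90 with LPS (6 hr, 24 hr and the small treatment set) and Bcl3 by 0.88, 1.17 and 1.07. In the small set Pim1 was at 9.88 to 10.10 with LPS, against 8.42 to 9.69 with no agent, and Bcl3 at 8.30 to 8.56, against 7.07 to 8.17, both without overlap. Cebpd was lower at 6 hr and higher at 24 hr on the probe set read here, whereas its other probe set gave 0.07 at 6 hr and -0.02 in the small set, neither called, and 0.41 at 24 hr (called). At 6 hr the first was at 6.67, 7.09 and 8.69 in LPS females and 7.13 to 9.31 in LPS males, against 7.69, 9.21, 9.39, 9.45 and 9.52 in females and 8.60 to 9.75 in males with no agent, with overlap in both sexes and a difference of -1.16 (SE 0.38, limma adjusted p = 0.0113). At 24 hr LPS males were at 9.41 to 10.19, against 7.15 to 8.45 in males with no agent, whereas LPS females were at 6.54, 7.21, 7.64 and 9.31, against 7.32 to 7.74, so that the pooled difference of 1.07 (limma adjusted p = 0.0179) was 0.15 in females alone (adjusted p = 0.867). At 6 hr the call on Cebpd was lost without the mice in place 1, 2 or 4 (adjusted p up to 0.136), and at 24 hr without those in place 2 or 5 (adjusted p up to 0.206). In the small set its difference of -0.70 (limma adjusted p = 0.0189) was -0.43 without mouse 10 (adjusted p = 0.109), and it was not called without the mice in place 1 or 2 (adjusted p up to 0.156) or with only the compared groups in the fit (adjusted p = 0.0888). Socs2 was higher at 24 hr only (0.97, limma adjusted p = 0.000325).

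With LPS at 6 hr 5 of 7 members rose and Cebpd, on 1 of its 2 probe sets, fell, where 14.8% of all genes rose and 20.5% fell. At 24 hr all 7 rose, where 9.20% rose and 12.7% fell, and in the small set 5 rose and Cebpd, on the same probe set, fell, where 10.2% rose and 16% fell. The members' medians were 0.88 at 6 hr and 0.97 at 24 hr, against 0.06 and 0.02 over all genes. With arrays centred on their medians, LPS raised 2846 genes and lowered 2290 at 6 hr, against 1833 and 2535, and in the small set 1696 and 1716, against 1263 and 1989. The LPS effect at 24 hr minus that at 6 hr was -0.90 for Socs1 (limma adjusted p = 0.00262) and 2.23 for Cebpd (adjusted p = 0.00244), 2 of 7 members, where 4.48% of all genes differed. Both calls were lost without the mice in place 2 (adjusted p = 0.129 and 0.145). With both sexes together, Cebpd averaged 7.90 at 6 hr and 8.83 at 24 hr with LPS. The mice with no agent moved too, from 8.97 at 6 hr to 7.64 at 24 hr. Neutrophil markers moved with LPS too, 10 of 15 rising at 6 hr and 15 of 15 at 24 hr, while 7 of 10 monocyte markers fell at 6 hr. At 24 hr the neutrophil list was at 10.12 to 10.78 in LPS females and 10.57 to 11.32 in LPS males, against 7.44 to 7.72 and 7.44 to 8.19 with no agent. The part of these cells was not tested.

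**Figure D4:**
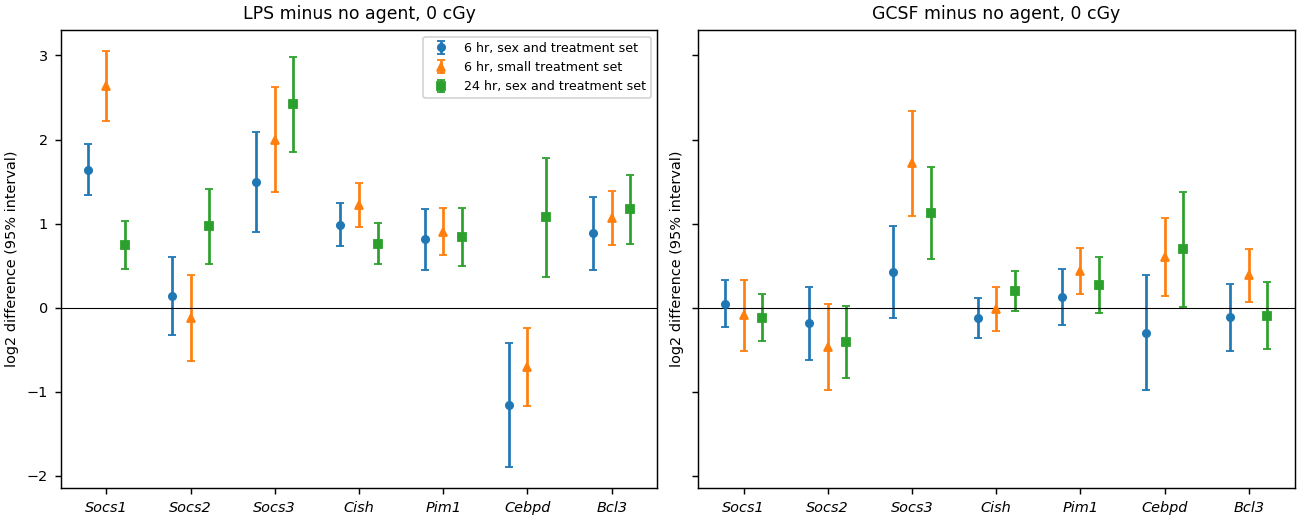
LPS minus no agent (left) and GCSF minus no agent (right) at 0 cGy for the 7 genes, as log2 differences with 95% intervals from the limma fit, in the sex and treatment set at 6 and 24 hr and in the small treatment set at 6 hr. Socs1 has its largest differences with LPS at 6 hr, and Cebpd (the probe set read here) lies below 0 at 6 hr and above it at 24 hr. With GCSF every interval crosses 0 at 6 hr in the sex and treatment set, while Socs3 lies above 0 at 24 hr and in the small set. With GCSF, limma gave an unadjusted p under 0.05 for 2 members at 24 hr and 4 in the small set.

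With GCSF, whose receptor signals through STAT3, Socs3 was the one member called. In the small treatment set Socs3 was at 9.25 to 9.85 with GCSF (median 9.54), against 6.53 to 10.11 with no agent (median 7.67), where mouse 10 alone was not below the GCSF mice, a difference of 1.72 (SE 0.31, limma adjusted p = 0.00131) that was not called with only the compared groups in the fit (SE 0.44, adjusted p = 0.510). At 24 hr in the sex and treatment set it was at 8.44 to 8.90 in GCSF females and 8.55 to 9.09 in GCSF males, against 7.12 to 7.90 and 7.29 to 7.98 with no agent, without overlap. That difference was 1.13 (SE 0.28, limma adjusted p = 0.0275), and leaving out the mice of any 1 place moved it to 1.07 to 1.18 with adjusted p from 0.0549 to 0.198. Socs3 was the 1 member called in each, where 0.549% of all genes were called at 24 hr and 0.549% in the small set. Without mouse 10, Pim1 (0.55, adjusted p = 0.0133), Cebpd (0.88, adjusted p = 0.00967) and Bcl3 (0.54, adjusted p = 0.0433) were called too. At 6 hr in the sex and treatment set limma called no member and 0% of all genes, with 283 genes and no member at an unadjusted p under 0.05. Socs3 there was at 7.64, 8.24, 8.37, 8.51 and 9.36 in GCSF females, against 7.36 to 9.94 with no agent, and at 9.75, 10.00, 10.01, 10.45 and 10.94 in GCSF males, against 7.79 to 9.23. The GCSF males lay above all their controls and the GCSF females among theirs. The GCSF effect in females minus that in males was -2.33 (limma adjusted p = 0.0425), where 0.105% of all genes differed, a call lost without the mice in place 1, 2 or 5 (adjusted p of 0.342 or more).

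LPS minus GCSF differed for 6 of 7 members at 6 hr, where 49.8% of all genes did, and for 6 of 7 at 24 hr, where 17.7% did. The exceptions were Socs2 at 6 hr and Cebpd at 24 hr, and the calls of Cebpd at 6 hr and of Pim1 at 24 hr were lost without the mice of single places (adjusted p up to 0.293). For Socs3 the 6 hr difference of 1.08 was -0.07 in males alone. In the small set 5 of 7 members differed, where 37.1% of all genes did. Alb was at 10 or more in 5 of 6 GCSF mice and 0 of 6 LPS mice at 0 cGy in that set. Leaving such mice out leaves too few GCSF mice to compare, and the part of liver RNA in these differences was not tested. There LPS exceeded GCSF for Socs1 (2.73), Cish (1.24), Bcl3 (0.68) and Pim1 (0.47), GCSF exceeded LPS for Cebpd (-1.31), and Socs3 was at 9.43 to 10.46 with LPS, against 9.25 to 9.85 with GCSF, a difference of 0.28 that did not pass the test.

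Radiation was also given on top of the agents. With no agent, the dose trends of Socs2 (0.10), Socs3 (0.23, limma adjusted p = 2.85e-05) and Bcl3 (0.11) rose at 6 hr, 3 of 7 members, where 19.9% of all genes were called. At 24 hr Socs2 (0.11), Socs3 (0.18) and Cebpd (0.32) rose, where 41.2% were called. With GCSF, 5 members rose at 6 hr, where 52.6% were called, with slopes of 0.25 for Socs3 and 0.26 for Cebpd, and 3 at 24 hr, where 30.6% were. No member's slope with GCSF differed from that with no agent by the test, where 0.0161% of all genes differed at 6 hr, 0.00807% at 24 hr and 1.67% in the small set, with 1 member each time at an unadjusted p under 0.05, though without mouse 10 that of Socs3 did in the small set (-0.23, limma adjusted p = 0.0366). With LPS, Pim1 (-0.14, limma adjusted p = 6.79e-05) and Bcl3 (-0.10) fell at 6 hr, where 32.2% were called, and no member was called at 24 hr, where 13% were. The trend of Bcl3 with LPS lost its call without the mice in place 3 or 5 (adjusted p up to 0.143), and so did that of Socs2 with no agent at 6 hr without those in place 2 or 4 (adjusted p up to 0.240) and that of Bcl3 without those in place 3 (adjusted p = 0.0891). With GCSF the calls of Socs1 and Socs2 at 6 hr, and of Socs2 at 24 hr with GCSF and with no agent, were likewise lost without the mice of single places (adjusted p up to 0.124).

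In the small set, the trends of Socs3 (0.32), Pim1 (0.13), Cebpd (0.23) and Bcl3 (0.14) rose with no agent, where 5.44% of all genes were called. With GCSF 5 members rose, where 24.2% were called, with 0.15 for Socs3 and 0.20 for Cebpd, and the calls of Socs3, Pim1 and Bcl3 were lost without the mice of single places (adjusted p up to 0.160). With LPS only Cish rose (0.06, limma adjusted p = 0.0372), where 14.5% were called, and not without the mice in place 1, 3 or 4 (adjusted p up to 0.270).

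The slope with LPS was below that with no agent for Socs3 (-0.31, limma adjusted p = 0.000497), Pim1 (-0.18, adjusted p = 0.000781) and Bcl3 (-0.21, adjusted p = 0.00143) at 6 hr, 3 of 7 members, where 6.45% of all genes were called. Those of Pim1 and Bcl3 were not called without the mice in place 3 (adjusted p = 0.0528 and 0.0765). At 24 hr it was lower for Socs3 (-0.17, adjusted p = 0.0495) and Cebpd (-0.22, adjusted p = 0.0437), where 16.5% were called, but Socs3 lost the call without the mice of any place but 3 (adjusted p up to 0.225) and Cebpd without 2, 4 or 5 (adjusted p up to 0.302). In the small set it was lower for Socs3 (-0.29, adjusted p = 0.019) and Bcl3 (-0.13, adjusted p = 0.04), where 2.99% were called, and leaving out the mice of single places ended either call (adjusted p up to 0.181). Of 15 neutrophil markers 14 also had a lower slope with LPS at 6 hr. Without mouse 10 the slopes of Cebpd (-0.17) and Pim1 (-0.10) in the small set were called as well (adjusted p = 0.0188 and 0.0479).

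At 600 cGy itself, LPS against no agent raised Socs1 (1.45) and Cish (1.01) and lowered Cebpd (-2.22, limma adjusted p = 5.4e-08) at 6 hr, 3 of 7 members, where 56.5% of all genes were called. In females alone the difference of Cebpd was -0.70 and not called. At 24 hr Socs1 (0.45), Socs3 (1.31), Cish (0.75), Pim1 (0.86) and Bcl3 (1.51) were higher with LPS, where 24.9% were called. In the small set Socs1 (2.10) and Cish (1.66) were higher and Cebpd lower (-1.60), where 47.5% were called. Socs1 and Cish were thus higher with LPS at 0 and 600 cGy in both sets and at both times tested. GCSF against no agent at 600 cGy called Socs3 at 24 hr (1.44, limma adjusted p = 0.000883; 0.997 and adjusted p = 0.126 without the mice in place 3), where 1.69% of all genes were called, and no member at 6 hr, where 0.992% were, or in the small set, where 0.258% were. At an unadjusted p under 0.05 limma gave 2 members and 1210 genes at 6 hr, and 0 members and 1543 genes in the small set.

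Males and females with no agent differed in their 6 hr response to dose. Socs3 averaged 9.17, 9.29, 10.04 and 9.34 at 0, 200, 300 and 600 cGy in females, against 8.64, 10.39, 10.72 and 11.37 in males. Cebpd averaged 9.05, 8.43, 9.42 and 8.25 in females, against 8.90, 9.74, 10.10 and 10.70 in males. The means climbed at each dose in males and not in females, and in females alone the slope of Socs3 was 0.04 (adjusted p = 0.644) and that of Pim1 fell (-0.11, adjusted p = 0.022). Pim1 averaged 9.71, 9.59, 9.29 and 9.07 in females, against 8.77, 9.13, 9.57 and 9.91 in males, and Bcl3 7.65, 7.64, 7.64 and 7.42 in females, against 7.29, 7.79, 8.25 and 8.82 in males. The slope in females minus that in males was -0.39 for Socs3 (SE 0.09, limma adjusted p = 0.0013), -0.30 for Pim1 (SE 0.06, adjusted p = 5.99e-05), -0.41 for Cebpd (SE 0.11, adjusted p = 0.00948) and -0.30 for Bcl3 (SE 0.07, adjusted p = 0.000899), 4 of 7 members, where 10.3% of all genes differed. That of Cebpd was not called without the mice in place 2 (adjusted p = 0.0657) or 5 (adjusted p = 0.0681). Of 15 neutrophil markers 12 had a lower slope in females, and their part was not tested. At 24 hr limma called no member and 0% of all genes for this difference of slopes, with 296 genes and 0 members at an unadjusted p under 0.05. Females and males lay in separate array runs, so sex and run cannot be told apart.

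Single sexes differed at 0 cGy and 6 hr as well. Pim1 was 0.94 higher in females than in males with no agent (limma adjusted p = 0.00263), 1 of 7 members, where 27.8% of all genes differed, and LPS raised Socs1 by 1.44 more in females than in males (limma adjusted p = 0.00312; adjusted p = 0.0638 without the mice in place 1), where 1.33% of all genes differed. At 24 hr and 0 cGy with no agent, no member differed between the sexes, where 6 genes were higher in females and 3 lower. At 24 hr limma called no member's GCSF effect between the sexes and 0% of all genes, with 166 genes and 1 member at an unadjusted p under 0.05. It called no member's LPS effect either, where 1.65% of all genes were called, with 2146 genes and 3 members at an unadjusted p under 0.05. For LPS 1 member was called under some alternatives: Socs1 with mouse number as a replicate block (0.98, adjusted p = 0.0306) or without dim genes (0.96, adjusted p = 0.0489), and Cebpd with only the compared groups in the fit (-1.85, adjusted p = 0.0362).

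**Figure D5:**
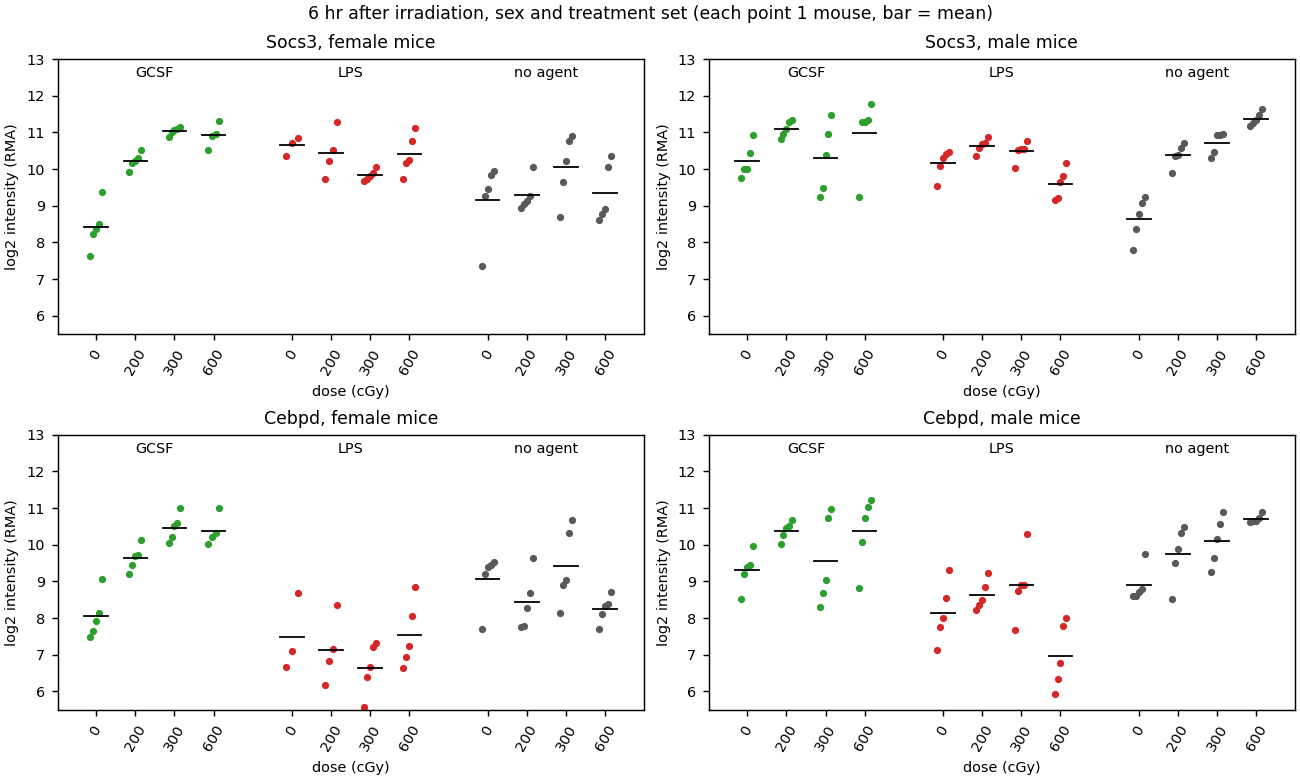
Log2 intensity of Socs3 (top) and Cebpd (bottom) at 6 hr in the sex and treatment set, females left and males right, by dose in cGy within GCSF, LPS and no agent, each point 1 mouse and each bar a group mean. Males with no agent climb to a Socs3 mean of 11.37 at 600 cGy, females with no agent stay at 9.34, and with LPS Cebpd lies below the other agents in both sexes at 600 cGy.

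At 168 hr after 150 cGy, in the small 7 day set, 1 of 7 members was called, where 67.1% of all genes were. Cish was at 6.81 to 8.26 in the 10 irradiated mice (median 7.25), against 6.57, 6.81 and 6.93 in the 3 mice at 0 cGy, a difference of 0.50 (SE 0.21, limma adjusted p = 0.0413). The ranges met at their edges, and leaving out the mice in place 1, 2 or 3 ended the call (adjusted p from 0.0817 to 0.151). Socs3 was at 6.57 to 9.72 in the irradiated mice (median 7.01), against 7.48, 7.68 and 7.69 at 0 cGy, and without mouse 2 it fell by 0.61 (limma adjusted p = 0.0137).

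Around the members, the other genes of the pathway moved in both directions with dose at 6 hr. Of 10 JAK and STAT genes 2 rose and 3 fell, with slopes of 0.09 for Stat3, -0.08 for Stat4 and -0.06 for Jak1. Of 22 cytokine receptor genes 8 rose and 2 fell, led by Csf2rb and Csf3r (0.21 each), and Csf3r is also on the neutrophil list. Of 19 ligand genes 7 rose and 1 fell, with Il15 at 0.13. Of 16 other negative regulators 4 rose and 2 fell, Dusp1 (0.23), a phosphatase of MAP kinases, the most. Of 14 other STAT target genes 8 rose and 1 fell, among them Lrg1 (0.44), Hp (0.30) and Junb (0.18), and of 10 partners and targets of Bcl3 in NF-kB signalling 1 rose and 2 fell. The median slope was 0.06 for the STAT target genes, -0.01 for the JAK and STAT genes and 0.02 for the receptors, against 0.00 over all genes. At 48 hr 7 of 10 JAK and STAT genes rose, Stat3 by 0.18 per 100 cGy, and all 4 other C/EBP genes, Cebpb by 0.18. At 168 hr 16 of 19 ligand genes fell, Il2 by a slope of -0.12 and Clcf1 by -0.16, beside hepatocyte genes that all rose.

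With LPS at 0 cGy and 6 hr the pathway split differently. Of 10 JAK and STAT genes Stat2 rose (1.53) and 4 fell, among them Stat4 (-0.74) and Stat5b (-0.66). Of 16 other negative regulators 3 rose and 5 fell: Usp18, a brake on type I interferon receptors, rose by 3.06, and the SOCS family genes Socs5 (-1.23) and Socs6 (-0.63) fell. Of 19 ligand genes 7 rose, with Ifng at 2.18 and Csf3, the gene of GCSF, at 1.10. Of 10 partners and targets of Bcl3 in NF-kB signalling 6 rose and 1 fell, with Nfkbiz at 1.81, Nfkbia at 1.20 and Tnfaip3 at 0.96, and a list median of 0.53. The medians were 0.20 for the ligands, -0.27 for the JAK and STAT genes and -0.17 for the negative regulators, against 0.06 over all genes. Cebpb rose by 0.96 and Cebpa fell (-0.73). At 24 hr Lrg1 (3.49), Hp (2.93) and Cebpb (1.98) were among the genes that rose.

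Other probe sets of 4 members were read beside the chosen ones over 91 comparisons. Both other Socs3 probe sets gave the same call in 84 or 85 of them, the other Socs2 probe set in 77, the other Pim1 probe set in 67 and the other Cebpd probe set in 59. The other Cebpd probe set gave 0.07 for LPS at 6 hr and -0.02 in the small set, neither called, so the lower Cebpd with LPS at 6 hr rests on 1 of 2 probe sets. It also had a slope of -0.03 at 168 hr, called in the opposite direction. The other Pim1 probe set had no called trend at 6 hr and a slope of -0.03 at 120 hr, called in the opposite direction. The other Socs2 probe set had no called trend at 6 or 48 hr.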

How the data were processed

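The deposited values are log2 intensities of Affymetrix mouse arrays that the authors made with RMA in the affy package, per the submitters' processing notes, with versions and settings not given in the sources used here. The deposited matrix held 22690 probe sets on 536 arrays of 534 mice. The 64 control probe sets, 1555 with no symbol and 691 with several were left out. The repeat scans of 2 mice were averaged with their first scans. The number of mice per group limits the precision.

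Each set was fitted alone as group means in limma 3.58.1 (R 4.3.3, data.table, version 1.17.8), with empirical Bayes moderation over 12393 genes and 192, 178, 41 and 14 residual degrees of freedom. Slopes on dose, differences at a dose and differences of slopes were contrasts, with both sexes weighted equally in the sex and treatment set. Tables were made in Python 3.11.15 (pandas 2.3.3, numpy 2.4.6), and plots with matplotlib 3.10.9.

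The members and lists were chosen with earlier results of these data known. Named beside the 7 members were up to 3 genes with the smallest p per pathway list, the 2 highest genes per cell type list with Alb always, the 3 genes with the highest r per member, and probe sets with a different call. Not all of these are printed.

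Array runs are read from the middle part of the sample titles, which do not say what that part means. Deviations of mice with the same number correlated by 0.0172, 0.0365, 0.0625 and -0.134 on average in the dose-time, sex and treatment, small treatment and small 7 day sets, so the numbers were not taken as pairs. Alternatives were array run and mouse number as blocks, separate fits, quantile normalisation, centring, leaving out dim genes or mice with Alb at 10 or more, averaging the probe sets of a gene, log dose, and leaving out the mice in each of places 1 to 5 of their groups in the order of deposit. Single sexes and the mice that stood apart were taken after seeing the data.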

Additional observations from a re-analysis of the deposited data

Results flagged for a closer look

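Single mice stood apart from the rest of their group in 17 of 189 gene and group sets of 4 to 10 mice (8.99%), where about 1 in 20 is what chance gives. These are the 7 genes in 27 groups: those at 0 and 600 cGy in the dose-time set, those at 0 cGy in both treatment sets, and the 150 cGy mice at 168 hr in the small 7 day set. The other groups were not screened. For Socs1 they were mouse 4 at 0 cGy and 120 hr (5.98) and mouse 22 at 600 cGy and 168 hr (5.86), each the lowest. For Socs3 they were mouse 2 of the 150 cGy mice in the small 7 day set (9.72, the highest) and female 3 with no agent at 0 cGy and 6 hr (7.36, the lowest), which was also the lowest for Cebpd (7.69). For Cish the lowest were mouse 2 with no agent at 0 cGy in the small treatment set (6.73), mouse 4 at 0 cGy and 24 hr in the dose-time set (6.30), female 4 with GCSF at 0 cGy and 6 hr (6.57), and female 1 (6.80) and male 4 (6.93) with no agent at 0 cGy and 6 hr. The highest for Cish was mouse 4 of the 150 cGy mice in the small 7 day set (8.26).

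For Pim1 mouse 5 at 600 cGy and 48 hr was lowest (8.38) and female 1 with no agent at 0 cGy and 24 hr highest (8.92). Male 4 with no agent at 0 cGy and 6 hr was highest for Cebpd (9.75). For Bcl3 mouse 10 with no agent at 0 cGy in the small treatment set (8.17) and male 4 with LPS at 0 cGy and 6 hr (8.46) were highest, and mouse 3 at 0 cGy and 120 hr in the dose-time set was lowest (6.54).

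Effects also differed between conditions by a test of the difference in limma. The LPS effect at 24 hr minus that at 6 hr was -0.90 for Socs1 and, on the probe set read here, 2.23 for Cebpd. The dose slope with LPS minus that with no agent was -0.31 for Socs3, -0.18 for Pim1 and -0.21 for Bcl3 at 6 hr, -0.17 for Socs3 and -0.22 for Cebpd at 24 hr, and -0.29 for Socs3 and -0.13 for Bcl3 in the small treatment set. The slope with no agent at 6 hr in females minus that in males was -0.39 for Socs3, -0.30 for Pim1, -0.41 for Cebpd and -0.30 for Bcl3. At 0 cGy and 6 hr the GCSF effect in females minus that in males was -2.33 for Socs3, and the LPS effect differed in the same way by 1.44 for Socs1. The dose slopes differed between the 6 times for Socs2 (limma F test, adjusted p = 4.58e-28), Socs3 (adjusted p = 5.08e-30), Cish (adjusted p = 0.000216), Pim1 (adjusted p = 1.13e-19), Cebpd (adjusted p = 1.05e-17) and Bcl3 (adjusted p = 2.3e-13).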

How the results depend on the processing

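Of 4767 values of single members under the alternatives, 4486 kept their direction and side of the threshold. The main limits are the small groups, the liver RNA in many blood samples of all sets, values without detection calls, and sex lying with array run. The cause of each change below was not tested. Counts of members below mostly stand without the share over all genes under the same alternative, and the counts over all genes moved as well.

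With mouse number as a replicate block, 327 of 343 member values kept their call. Counts of members called (all mice and the fit as reported in brackets) became 0 for GCSF at 600 cGy and 24 hr (1), 1 for the LPS effect between sexes at 24 hr (0), 4 for GCSF in the small treatment set (1), 1 for its GCSF minus no agent slope (0), 4 for its LPS minus no agent slope (2), 2 for its LPS trend (1), and 0 in the small 7 day set (1). With array run as a block, the LPS minus no agent slope at 24 hr had 1 (2), and 251 of 252 values were kept.

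With only the groups of a comparison in the fit, the counts were 3 for GCSF at 24 hr (1), 1 for GCSF at 24 minus 6 hr (0), 0 for GCSF at 600 cGy and 24 hr (1), 0 for the LPS minus no agent slope at 24 hr (2), 2 for females minus males at 0 cGy and 6 hr (1), 0 for the GCSF effect between sexes at 6 hr (1), 1 for that of LPS at 24 hr (0), and in the small sets 0 for GCSF (1), 1 for the LPS minus no agent slope (2), 3 for the LPS trend (1) and 0 for 150 cGy at 168 hr (1). Over all genes this fit called 2874 for GCSF at 24 hr (68) and 2134 for GCSF at 24 minus 6 hr (69). It called 5921 genes for females minus males at 0 cGy and 6 hr (3446), and 1331 for the LPS effect between sexes at 24 hr (205). For GCSF in the small treatment set it called 2 (68).

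Quantile normalisation gave 3 for the 120 hr trend (6), 1 for the LPS trend at 6 hr (2), 2 for GCSF at 600 cGy and 24 hr (1), 1 for the LPS minus no agent slope at 24 hr (2), and in the small sets 5 for LPS at 600 cGy (3), 1 for the LPS minus no agent slope (2), 2 for the LPS trend (1) and 2 for 150 cGy at 168 hr (1). The slope of Pim1 at 120 hr turned to -0.0080. Centring gave 1 for the LPS minus no agent slope at 24 hr (2) and in the small set (2), and 0 for the GCSF effect between sexes at 6 hr (1). Leaving out dim genes gave 1 for the LPS effect between sexes at 24 hr (0). The mean of probe sets gave 1 for the LPS minus no agent slope at 24 hr (2), 0 for the GCSF effect between sexes at 6 hr (1), 1 for females minus males at 0 cGy and 24 hr (0), 2 for the LPS trend in the small set (1) and 2 for 150 cGy at 168 hr (1).

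Without mice of Alb at 10 or more the counts were 3 for the 24 hr trend (1), 3 for the 168 hr trend (6), 0 for GCSF at 24 hr (1), 1 for LPS at 24 minus 6 hr (2), 1 for the LPS trend at 6 hr (2) and 1 at 24 hr (0), 2 for GCSF at 600 cGy and 24 hr (1), 1 for the LPS minus no agent slope at 6 hr (3) and 1 at 24 hr (2). In the small treatment set they were 5 for LPS at 600 cGy (3) and 2 for the LPS trend (1). No counts are given for GCSF in that set, where Alb was at 10 or more in 5 of 6 mice at 0 cGy and 4 of 5 at 600 cGy. Other groups lost most mice too, such as females with no agent at 0 cGy and 24 hr (4 of 5). Slopes that turned without mice of Alb at 10 or more were those of Bcl3 at 120 hr (-0.17) and of Socs3 (-0.38), Pim1 (0.086), Cebpd (-0.33) and Bcl3 (-0.085) at 168 hr. With log dose the 24 hr trend had 3 (1). A limma F test over all doses, run beside the trend at 24 hr, called 6 members. It called 7360 of all 12393 genes, against 4798 by the trend.

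Females alone gave 0 for GCSF at 24 hr (1), 0 for LPS at 24 minus 6 hr (2), 1 for the no agent trend at 6 hr (3), 2 for the GCSF trend at 6 hr (5), 1 for the LPS trend at 6 hr (2), 2 for the GCSF minus no agent slope at 6 hr (0), 2 for GCSF at 600 cGy at 6 hr (0) and 0 at 24 hr (1), and 0 and 1 for the LPS minus no agent slope at 6 hr (3) and 24 hr (2). Their no agent slopes of Pim1 (-0.11) and Bcl3 (-0.038) at 6 hr turned. Over all genes females alone called 82 for LPS at 24 minus 6 hr (555) and 220 for the GCSF minus no agent slope at 6 hr (2). They called 478 for GCSF at 600 cGy and 6 hr (123), and 179 for the LPS minus no agent slope at 6 hr (799). Males alone gave 0 for GCSF at 24 hr (1), 2 for LPS minus GCSF at 6 hr (6) and 3 at 24 hr (6), 1 for the GCSF trend at 6 hr (5), 7 for LPS at 600 cGy at 6 hr (3) and 3 at 24 hr (5), and 0 for the LPS minus no agent slope at 24 hr (2). Over all genes males alone called 7678 for LPS at 600 cGy and 6 hr (7000). They called 2609 for LPS minus GCSF at 6 hr (6166) and 877 for the GCSF trend at 6 hr (6521). Socs3 then turned to -0.067 for LPS minus GCSF at 6 hr and 0.0027 for the LPS minus no agent slope at 24 hr. Without mouse 10 the small set had 4 for GCSF (1), 1 for the GCSF minus no agent slope (0) and 4 for that of LPS (2). Without the 800 cGy mice the 24 hr trend had 2 (1), and without mouse 2 the small 7 day set had 2 (1). These single sexes and mice were taken after seeing the data.

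Leaving out the mice in places 1 to 5 of every group in turn, by order of deposit, with any past the fifth kept in, gave 0 to 1 for 150 cGy at 168 hr, for the GCSF effect between sexes at 6 hr, for the LPS effect between sexes at 24 hr and for the LPS trend in the small set, 0 to 2 for GCSF at 600 cGy and 24 hr, LPS at 24 minus 6 hr, the LPS effect between sexes at 6 hr, the 24 hr trend and the LPS minus no agent slope at 24 hr, 0 in every case for GCSF at 24 hr, and 1 to 3 for GCSF in the small set and the LPS minus no agent slope at 6 hr. It gave 0 to 3 for the LPS minus no agent slope in the small set, 3 to 5 and 2 to 5 for the GCSF trend at 6 hr and in the small set, and 1 to 2 for the LPS trend at 6 hr. Over all pairs of a member and a dose in the dose-time set, 133 to 150 were called, against 159 with all mice.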
